A study of Mus musculus with 36 samples.

Results

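Collagen gene expression was compared between brain regions and between Pogz genotypes in adult C57Bl/6 mice. Members were the genes of both count tables whose symbol reads Col, a number, the letter a and a number, which gave 44 collagen genes of 24421 genes listed. They were sorted into 11 fibrillar collagens, 6 chains of type IV (basement membrane) collagen and 27 other collagens. Both brain regions were sequenced from 18 mice, taken as the same mice by their shared sample numbers, with 6 mice of each genotype (3 males and 3 females). Controls were Pogzfl/fl and carried floxed Pogz without Cre. Heterozygous knockouts (cKO+/-) were NesCre/+; Pogzfl/+ and homozygous knockouts (cKO-/-) were NesCre/+; Pogzfl/fl. Nestin-Cre deletes in the nervous system, so meningeal and vascular cells, the main sources of many collagens in brain tissue, are not its intended target. Since every knockout carried Cre and no control did, an effect of Cre and an effect of the Pogz deletion cannot be told apart.

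Collagens are secreted proteins whose chains wind around each other into a rope-like helix. Fibrillar collagens such as types I and III assemble into fibres and, in the brain, are made mostly by fibroblasts of the meninges and of large vessels. Type IV chains form sheet-like networks in the basement membrane around every blood vessel and beneath the pia. Other classes link fibres (the fibril-associated collagens or FACITs), form beaded filaments (type VI) or span the cell membrane, and several of these are made by neurons, where Col19a1 and Col25a1 are known from synapse and axon biology.

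Type IV genes lie in head-to-head pairs, and the starts of genes that carry the results are shown to set such pairs beside the fibrillar genes Col1a2 and Col3a1. By the exon coordinates in the files, Col4a1 (chr8:11198423-11312826, minus strand) and Col4a2 (chr8:11312829-11449287, plus strand) are separated by 2 bases, Col4a4 and Col4a3 on chromosome 1 by 71 bases, and Col4a6 (chrX:141165403-141474076, minus strand) and Col4a5 (chrX:141475419-141689235, plus strand) by 1342 bases. Col1a1 lies at chr11:94936270-94951856, Col1a2 at chr6:4505697-4541543 and Col3a1 at chr1:45311538-45349706, all on the plus strand. The 44 genes were spread over 15 chromosomes, and 2 of them shared exon bases with another gene: Col9a3 shared 229 bases with Tcfl5 on the opposite strand and Col7a1 shared 36 bases with Mir711. Each sequence below runs 5′ to 3′ on the gene's own strand from 250 bases before to 50 bases after the RefSeq start (GRCm38.p6). Capitals mark the CCAAT box (letters CCAAT), the GC box (letters GGGCGG) and the TATA box (letters TATAAA) on either strand, so that their reverse complements are in capitals as well. These motifs do not overlap each other here.
Col1a2, chr6:4505368-4505667, plus strand: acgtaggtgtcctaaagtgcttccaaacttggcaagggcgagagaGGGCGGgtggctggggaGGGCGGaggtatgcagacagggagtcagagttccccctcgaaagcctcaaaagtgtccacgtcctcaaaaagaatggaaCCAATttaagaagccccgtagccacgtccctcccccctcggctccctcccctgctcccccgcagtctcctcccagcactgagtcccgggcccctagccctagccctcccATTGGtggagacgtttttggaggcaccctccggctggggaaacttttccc
Col3a1, chr1:45311288-45311587, plus strand: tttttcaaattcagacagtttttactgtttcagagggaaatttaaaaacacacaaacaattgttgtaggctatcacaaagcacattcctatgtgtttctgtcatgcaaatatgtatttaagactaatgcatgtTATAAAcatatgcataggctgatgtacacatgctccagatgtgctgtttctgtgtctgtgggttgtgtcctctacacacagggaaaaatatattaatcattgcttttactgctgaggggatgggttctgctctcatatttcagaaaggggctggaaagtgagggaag
Col4a1, chr8:11312777-11313076, minus strand: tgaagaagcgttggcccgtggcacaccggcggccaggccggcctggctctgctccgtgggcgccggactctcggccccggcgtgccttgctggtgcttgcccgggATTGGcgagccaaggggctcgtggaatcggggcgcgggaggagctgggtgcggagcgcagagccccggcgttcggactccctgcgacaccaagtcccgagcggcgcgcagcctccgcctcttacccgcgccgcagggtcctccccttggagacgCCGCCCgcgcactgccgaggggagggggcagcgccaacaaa
Col4a2, chr8:11312555-11312854, plus strand: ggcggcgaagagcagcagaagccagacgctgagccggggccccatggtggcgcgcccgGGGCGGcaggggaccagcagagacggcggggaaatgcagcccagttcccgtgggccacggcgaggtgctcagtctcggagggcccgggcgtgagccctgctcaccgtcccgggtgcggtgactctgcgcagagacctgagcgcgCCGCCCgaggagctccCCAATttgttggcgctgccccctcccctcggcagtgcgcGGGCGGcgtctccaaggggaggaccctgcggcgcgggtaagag
Col4a5, chrX:141475169-141475468, plus strand: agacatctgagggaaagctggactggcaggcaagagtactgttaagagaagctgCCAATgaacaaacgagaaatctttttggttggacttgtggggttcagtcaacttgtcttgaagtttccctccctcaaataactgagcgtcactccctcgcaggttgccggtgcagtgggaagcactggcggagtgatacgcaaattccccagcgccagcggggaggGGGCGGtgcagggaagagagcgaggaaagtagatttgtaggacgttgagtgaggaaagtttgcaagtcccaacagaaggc
Col4a6, chrX:141474027-141474326, minus strand: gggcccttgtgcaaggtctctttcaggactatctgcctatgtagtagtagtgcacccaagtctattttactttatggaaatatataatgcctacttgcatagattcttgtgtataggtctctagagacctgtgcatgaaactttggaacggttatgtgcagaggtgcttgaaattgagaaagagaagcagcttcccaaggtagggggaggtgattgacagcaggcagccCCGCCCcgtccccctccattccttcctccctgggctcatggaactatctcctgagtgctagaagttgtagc
The Col4a1 and Col4a2 windows overlap, read from opposite strands, and are rich in G and C (74.0% and 73.7% of bases, against a median of 52.7% over all promoters). Col3a1 stood at the other end, with 37.7% G and C, 1 TATAAA and neither of the other motifs. RefSeq promoters were found for 35 of the 44 genes. Among their 38 windows, GGGCGG was present in 60.5%, against 35.7% of all 32851 promoters of the same length. CCAAT was present in 34.2% against 37.4%, and TATAAA in 13.2% against 13.6%. These are counts of letters and say nothing of which factor binds.

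Libraries held 17609321 to 45544188 counted reads. Pogz was lower in every cKO-/- library than in every control library of its tissue, at 57.0 to 73.9 CPM (counts scaled to the size of the library) against 89.5 to 129.5 CPM in the cerebellum and 53.5 to 67.7 CPM against 88.9 to 92.7 CPM in the hippocampus. These per-gene counts also include reads outside the deleted exons. The study set aside 1 RNA sample that it did not name. Here the hippocampal test ran without the cKO-/- mouse Sample_1160, a choice taken from earlier processing of these files and not from the study, and the main hippocampal results are also given with it. Cerebellar marker genes (each tissue on its own scale) summed to 9638 to 18120 CPM in cerebellar libraries and to 415.6 to 1163 CPM in hippocampal libraries, lowest in Sample_1160 and highest in the control Sample_1129. Hippocampal marker genes summed to 732.1 to 1088 CPM in hippocampal libraries and to 94.6 to 147.2 CPM in cerebellar ones. Choroid plexus markers (10 genes, led by Ttr) summed to 2409, 3231 and 3093 CPM in the cerebella of Sample_933, Sample_1433 (both cKO+/-) and Sample_936 (cKO-/-), against 22.2 to 83.5 CPM in the other 15. No control cerebellum exceeded 30.4 CPM. In the hippocampus they summed to over 500 CPM in Sample_1129 and Sample_1170 (controls), Sample_1189 (cKO+/-), and Sample_1219 and Sample_1385 (cKO-/-). All controls had numbers between Sample_1120 and Sample_1219, whereas 3 cKO+/- and 4 cKO-/- mice had numbers outside that run. Among the latter were Sample_933, Sample_1433 and Sample_936. What the numbers stand for is not given in the sources used here.

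The collagens of the cerebellum and hippocampus differed in control mice. Levels compared between genes are in CPM per kilobase of exon, as means ± SD (n = 6). In the cerebellum the highest were Col18a1 at 26.1 ± 4.38, Col9a3 at 20.3 ± 1.52, Col1a2 at 7.46 ± 0.882, Col9a2 at 6.54 ± 1.02 and Col27a1 at 5.57 ± 1.32. Col18a1 encodes a basement membrane collagen that is the precursor of endostatin, and Col9a2 and Col9a3 encode chains of a FACIT best known from cartilage. In the hippocampus the order was led by Col4a2 at 13.4 ± 1.17, Col25a1 at 11.96 ± 0.874, Col9a3 at 11.04 ± 10.5, Col4a1 at 9.85 ± 0.332 and Col11a2 at 7.09 ± 1.79. Only Col9a3 was among the first 5 in both regions, and its hippocampal mean rested on the library of Sample_1129 (31.2). Without that library it was 7.01 ± 4.10 (n = 5), and by its median over 6 libraries (5.52) it came after Col11a2 and Col11a1. Neighbours in either order often lay within 1 SD of each other, as for Col9a2 and Col27a1 in the cerebellum or Col9a3 and Col4a1 in the hippocampus.

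By share of all collagen CPM, type IV chains made up 26.3% ± 2.99 in the control hippocampus against 9.79% ± 1.35 in the control cerebellum (SD, n = 6). Transmembrane collagens took 16.5% ± 2.56 against 5.36% ± 0.654 and type VI chains took 8.0% ± 2.74 against 3.47% ± 0.545. Multiplexins (Col15a1 and Col18a1) ran the other way, at 2.54% ± 0.904 in the hippocampus against 25.3% ± 2.07 in the cerebellum. Fibrillar collagens (24.8% ± 2.28 and 29.5% ± 1.80) and FACITs (18.6% ± 2.12 and 23.3% ± 0.455) took large shares of both.

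**Figure D1:**
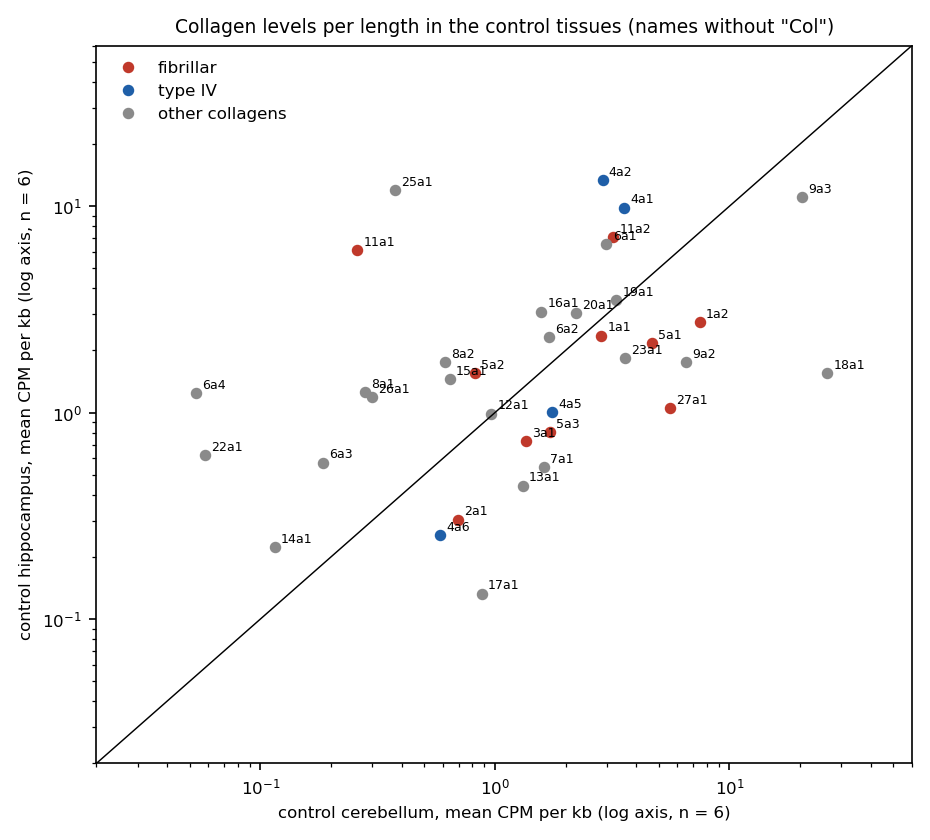
Mean level of each collagen gene in control cerebellum (x axis) and control hippocampus (y axis), in CPM per kilobase on log axes, coloured by class, for the 36 genes tested; points are means of 6 libraries and the diagonal marks equal levels. Col4a1 and Col4a2 lie above the diagonal, and Col18a1, Col27a1 and Col1a2 lie below it.

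For 36 collagens tested between tissues, 15 were higher in the hippocampus and 15 were lower, and 6 did not pass. This comparison called 71.9% of all genes tested (35.2% higher and 36.7% lower). Most genes at large thus differed as well, and the count is not read as a result about collagens. Differences are log2 values of hippocampus minus cerebellum, with adjusted p from edgeR's quasi-likelihood test and Benjamini-Hochberg adjustment over all genes. Of 4 type IV chains tested, 2 were higher and 2 lower, and of 10 fibrillar collagens 3 were higher and 6 lower. Among the 22 others, 10 were higher and 7 lower.

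Vessel-type basement membrane chains were higher in the hippocampus. Col4a2 ranged from 2.42 through a median of 2.85 to 3.36 CPM per kilobase in the control cerebella and from 11.9 through 13.6 to 14.9 in the hippocampi. Col4a1 ranged from 2.66 through 3.79 to 3.98 and from 9.40 through 9.87 to 10.2. Neither gene overlapped between tissues, and the log2 differences were 2.22 for Col4a2 (SE 0.09, edgeR adjusted p = 6.5e-11) and 1.47 for Col4a1 (SE 0.08, edgeR adjusted p = 1.2e-09). Endothelial markers did not run with them: 9 of 10 were lower in the hippocampus and none was higher, and their sum, with both tissues scaled together, was 159.4 ± 9.70 CPM against 265.1 ± 28.2 CPM in the cerebellum (SD, n = 6). Of all genes tested, 36.7% were lower in the hippocampus. In bulk tissue, fewer cells of a type and less RNA per cell cannot be told apart.

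Type I and III fibres were the other way round. Col1a2 ranged from 6.87 through 7.12 to 9.18 CPM per kilobase in the cerebella and from 1.88 through 2.03 to 5.93 in the hippocampi. All hippocampi lay below all cerebella, with a log2 difference of -1.47 (SE 0.26, edgeR adjusted p = 0.000176). Col3a1 was also lower in the hippocampus (log2 -0.91, SE 0.31, edgeR adjusted p = 0.0187), while Col1a1 did not pass (log2 -0.30, SE 0.33, edgeR adjusted p = 0.434). The highest hippocampal value of each of these genes was in Sample_1129, the control hippocampus with the highest choroid plexus and cerebellar marker sums. Choroid plexus markers were also high in the control hippocampus of Sample_1170 (2421 CPM). There Col1a1, Col1a2 and Col3a1 summed to 19.01 CPM, within a control range of 18.82 to 65.64 CPM. Without Sample_1129, Col1a1 became lower in the hippocampus as well (log2 -0.81, edgeR adjusted p = 3.98e-05), and Col1a2 and Col3a1 stood at -1.84 and -1.32. Col3a1 did not pass without Sample_1155 (-0.72) or Sample_1192 (-0.76).

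The 4 largest differences upward in the hippocampus were in Col25a1, Col11a1, Col6a4 and Col22a1, ahead of Col4a2. Col25a1, a transmembrane collagen whose shed form is found in amyloid plaques, ranged from 0.262 to 0.496 CPM per kilobase in the cerebella and from 11.2 to 13.5 in the hippocampi (log2 4.99, SE 0.13, edgeR adjusted p = 7.1e-13). Col11a1, a regulatory chain of cartilage-type fibrils, was higher in the hippocampus by 4.56 (SE 0.24). Col6a4 (log2 4.55, SE 0.32) and Col22a1 (log2 3.43, SE 0.25) followed, and after Col4a2 came Col26a1 (log2 1.96, SE 0.23). Col6a4 and Col22a1 were under 1 CPM in every control cerebellum and passed the filter on low values through the hippocampal libraries alone.

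Among collagens lower in the hippocampus, Col18a1 had the largest difference. It ranged from 20.3 through 25.9 to 33.0 CPM per kilobase in the cerebella and from 0.810 through 1.05 to 4.45 in the hippocampi, with Sample_1129 highest, and the log2 difference was -4.17 (SE 0.37, edgeR adjusted p = 2.5e-07). Col17a1, a collagen of epithelial attachment, differed by -3.06 (SE 0.60), Col27a1, a fibrillar collagen of cartilage, by -2.42 (SE 0.22), and Col9a2 by -1.91 (SE 0.14). Col7a1, the anchoring fibril collagen of skin, and Col13a1, a transmembrane collagen of muscle synapses, each differed by -1.58 (SE 0.26 and 0.17). None of these overlapped between tissues, which was also so for 52.2% of all genes tested. Col17a1 was near the floor in the control hippocampi, with a median of 0.0314 CPM per kilobase (0.00628 to 0.443). It passed the filter on low values through its levels in the cerebella.

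Loss of Pogz alleles was accompanied in the cerebellum by higher levels of Col1a1, Col1a2, Col3a1, Col2a1, Col4a5 and Col4a6 and of 2 of 3 type VI chains tested, and by lower levels of Col27a1, Col9a2, Col9a3 and the transmembrane Col13a1 and Col17a1. Of 37 collagens tested, 14 were higher and 5 were lower with each allele lost, against 7.11% and 6.55% of all genes tested (13.7% in all). The remaining 18 did not pass. The median collagen change was 0.26 log2 per allele lost, beside 0.00087 over all 14027 genes tested. Fibrillar collagens had 5 higher and 1 lower of 10 tested, type IV chains 3 higher and 0 lower of 6, and the others 6 higher and 4 lower of 21. The type IV count includes Col4a4, which was under 1 CPM in every control library and entered the test through the knockout libraries. Changes per allele lost below are log2 values with adjusted p from the same edgeR quasi-likelihood test.

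Col1a1 and Col1a2, the chains of type I collagen, and Col3a1, the chain of type III, were higher together. In controls Col1a2 had values of 36.7, 37.7 and 48.5 CPM (lowest, median and highest library, an order kept below). It was 48.2, 54.5 and 64.8 CPM in cKO+/- and 52.4, 77.6 and 90.2 CPM in cKO-/-. Every cKO-/- library was above every control, whereas cKO+/- libraries overlapped both, with 1 of 6 inside the control range and 4 of 6 above the lowest cKO-/- library (0.45 per allele lost, SE 0.06, edgeR adjusted p = 4.2e-05). Col1a1 was 10.7, 13.6 and 17.3 CPM in controls, 17.1, 21.4 and 26.3 CPM in cKO+/-, and 15.2, 28.9 and 40.5 CPM in cKO-/- (0.52, SE 0.09, edgeR adjusted p = 0.00126). Col3a1 was 6.12, 7.28 and 10.4 CPM in controls, 7.70, 10.7 and 18.99 CPM in cKO+/-, and 8.70, 20.1 and 23.5 CPM in cKO-/- (0.62, SE 0.11, edgeR adjusted p = 0.00104). Both genes overlapped between cKO-/- and controls through the cKO-/- cerebellum of Sample_1160, which was the lowest of its genotype.

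Other fibrillar chains were mixed. Col2a1, the main collagen of cartilage, was 2.05 to 5.42 CPM in controls, 5.18 to 8.46 CPM in cKO+/- and 5.75 to 9.85 CPM in cKO-/- (0.52, SE 0.11, edgeR adjusted p = 0.0057), without overlap between cKO-/- and controls. Col5a2, a type V chain found inside type I fibres, was higher by 0.31 (SE 0.08, edgeR adjusted p = 0.0137). Its partner chains Col5a1 and Col5a3 did not pass and had negative values (-0.27 and -0.21). Col27a1 was the fibrillar collagen that fell: it was 30.6, 42.8 and 56.1 CPM in controls, 23.9, 26.1 and 50.8 CPM in cKO+/-, and 11.6, 19.9 and 25.6 CPM in cKO-/-. Its cKO-/- libraries were all below its controls (-0.59, SE 0.11, edgeR adjusted p = 0.00187).

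**Figure D2:**
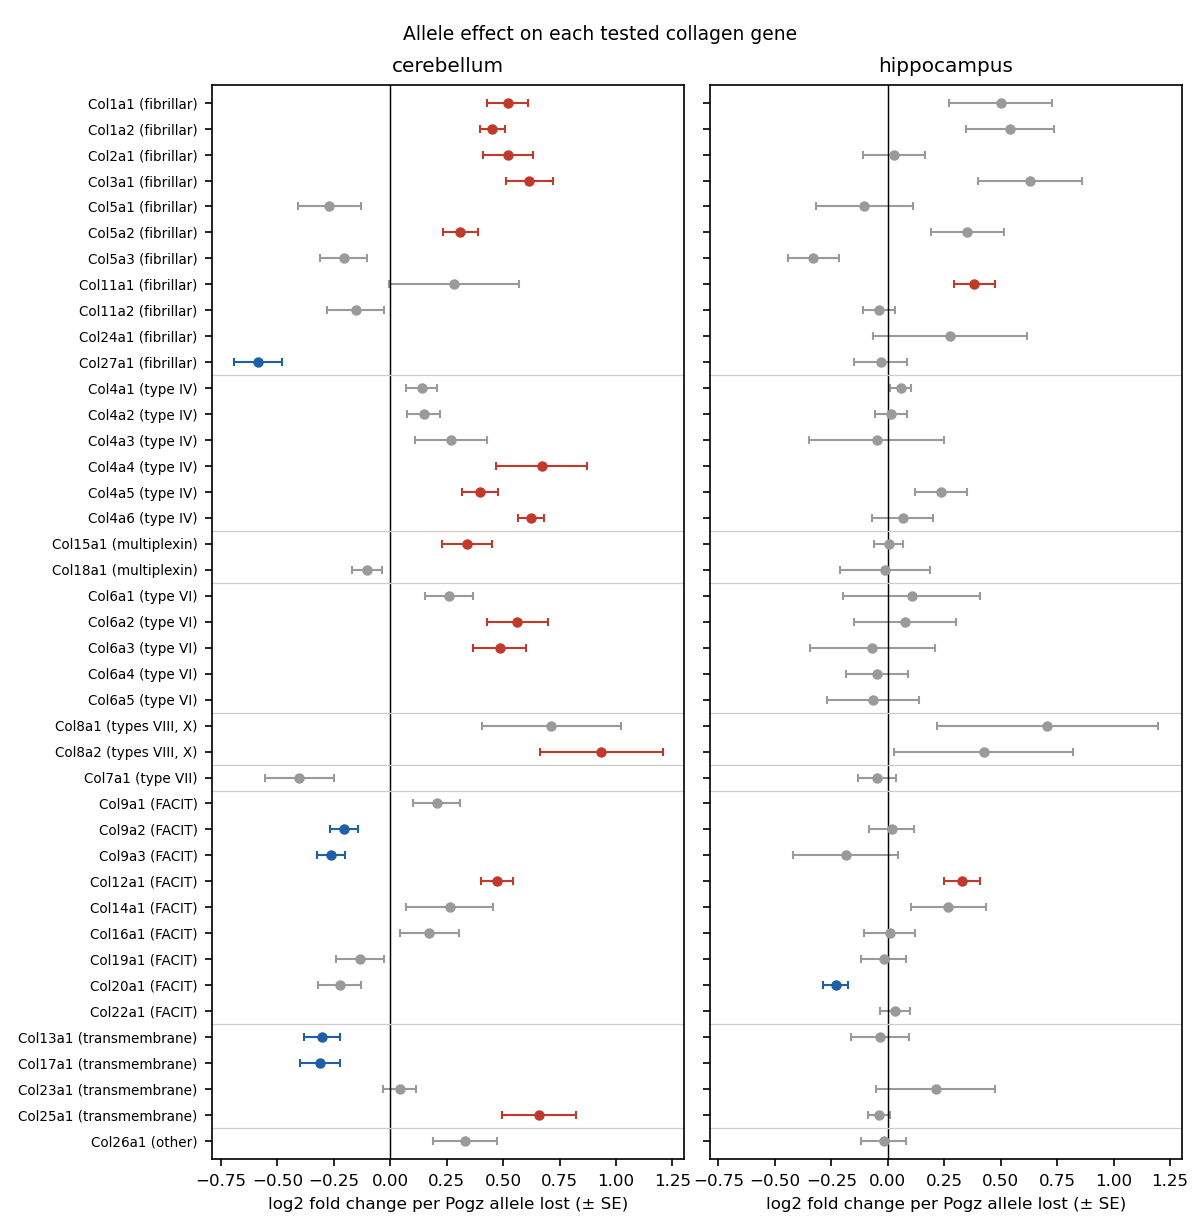
Change of each collagen gene per Pogz allele lost, in log2 units (cerebellum left, hippocampus right), with SE bars, grouped by class; red points (higher) and blue points (lower) passed the edgeR quasi-likelihood test at an adjusted p under 0.05 and grey points did not. In the cerebellum 14 collagens were higher and 5 lower, and in the hippocampus 2 were higher and 1 lower.

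Within type IV, Col4a5 and Col4a6 were higher, while Col4a3 and the abundant pair Col4a1 and Col4a2 did not pass. Col4a6, a chain of specialised basement membranes such as those of smooth muscle, was 3.54, 4.17 and 4.28 CPM in controls, 4.74, 5.47 and 5.72 CPM in cKO+/-, and 7.52, 9.69 and 11.1 CPM in cKO-/-. The genotypes did not overlap at all, and it had the smallest p of the collagens (0.62, SE 0.06, edgeR adjusted p = 8.1e-07). Its head-to-head neighbour Col4a5 was 9.05, 11.2 and 17.3 CPM in controls and 18.9, 19.4 and 25.9 CPM in cKO-/-, again without overlap (0.40, SE 0.08, edgeR adjusted p = 0.00341). Non-overlap of cKO-/- and control libraries was seen for 5 collagens with higher values (Col4a6, Col1a2, Col12a1, Col4a5 and Col2a1) and 2 with lower values (Col27a1 and Col9a3), against 2.67% and 1.9% of all genes tested (4.58% in either direction). Col4a4 passed at 0.67 (SE 0.20, edgeR adjusted p = 0.0337), but no control library reached 1 CPM (0.288 to 0.871 CPM), so it entered the test through the knockout libraries. Its neighbour Col4a3 did not pass (0.27, edgeR adjusted p = 0.262).

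Col4a1 and Col4a2, the chains of vessel basement membrane, overlapped between all genotypes. Col4a1 had a median of 25.8 CPM in controls (18.1 to 27.0), 28.3 CPM in cKO+/- (23.2 to 40.4) and 31.0 CPM in cKO-/- (22.1 to 33.7). Col4a2 had medians of 18.8, 24.4 and 24.4 CPM. The changes were 0.14 (SE 0.07, edgeR adjusted p = 0.182) and 0.15 (SE 0.07, edgeR adjusted p = 0.171).

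Of the remaining collagens, Col12a1, a FACIT found on type I fibres of dense connective tissue, was 9.06, 11.1 and 15.7 CPM in controls, 11.3, 15.5 and 20.7 CPM in cKO+/-, and 19.4, 22.3 and 27.3 CPM in cKO-/- (0.47, SE 0.07, edgeR adjusted p = 0.000245). Type VI chains Col6a2 (0.56, SE 0.13, edgeR adjusted p = 0.0115) and Col6a3 (0.48, SE 0.12, edgeR adjusted p = 0.0133) were higher, while Col6a1 did not pass (0.26, edgeR adjusted p = 0.105). Col25a1 was higher by 0.66 (SE 0.16, edgeR adjusted p = 0.0139), from 2.05 to 3.81 CPM in controls to 3.30 to 15.1 CPM in cKO-/-. The highest cKO-/- value was that of Sample_1385, without which Col25a1 did not pass (0.43, edgeR adjusted p = 0.0538). Col15a1 and Col8a2 were the other members with higher levels. Col8a2 had the largest value (0.94, SE 0.27, edgeR adjusted p = 0.0306) and the cerebella of Sample_933, Sample_1433 and Sample_936, rich in choroid plexus markers, had its highest levels (20.2, 21.9 and 23.3 CPM, against 12.1 CPM or less elsewhere).

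Lower levels were found in 2 of 8 FACITs and 2 of 4 transmembrane chains tested, while 1 of each class was higher (Col12a1 and Col25a1). Col9a3 was 53.9, 59.4 and 65.7 CPM in controls, 40.3, 52.5 and 77.2 CPM in cKO+/-, and 35.6, 39.6 and 50.8 CPM in cKO-/- (-0.26, SE 0.06, edgeR adjusted p = 0.00921). Control and cKO-/- libraries did not overlap, whereas cKO+/- spanned both. Col9a2, a chain of the same type IX molecule, fell by 0.21 (edgeR adjusted p = 0.0333), Col13a1 fell by 0.30 (edgeR adjusted p = 0.0193) and Col17a1 fell by 0.31 (edgeR adjusted p = 0.028). Col18a1, the most abundant collagen of the cerebellum per kilobase, did not pass (-0.10, edgeR adjusted p = 0.3004). Not tested for low counts were Col10a1, Col22a1, Col24a1, Col28a1, Col6a4, Col6a5 and Col6a6.

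These counts depended on the genotypes compared and on the mice in the fit. Genotype was also fitted as a factor over all 18 libraries. There the same 14 and 5 collagens passed for cKO-/- against control. The log2 differences were 1.04 for Col1a1, 0.91 for Col1a2, 1.23 for Col3a1 and 1.24 for Col4a6. With cKO+/- against control, 0 collagens and 48 genes in all passed (Col1a2 0.48, edgeR adjusted p = 0.108). A term for animals numbered outside Sample_1120 to Sample_1219 left 5 higher (Col1a1, Col1a2, Col3a1, Col12a1 and Col4a6) and 3 lower (Col9a3, Col13a1 and Col27a1), where 2.2% of all genes passed. In that fit Col1a2 was at 0.33 (edgeR adjusted p = 0.00106) and Col4a6 at 0.56 (edgeR adjusted p = 3.8e-05). Leaving out the cerebella of Sample_933, Sample_1433 and Sample_936 left 13 higher and 4 lower. When each mouse was left out in turn, Col1a1, Col1a2, Col3a1, Col2a1, Col5a2, Col4a5, Col4a6, Col6a2, Col6a3, Col12a1, Col13a1, Col9a3 and Col27a1 passed in all 18 fits. Col25a1 passed in 17, Col17a1 in 14, Col4a4, Col8a2 and Col9a2 in 11, and Col15a1 in 8.

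**Figure D3:**
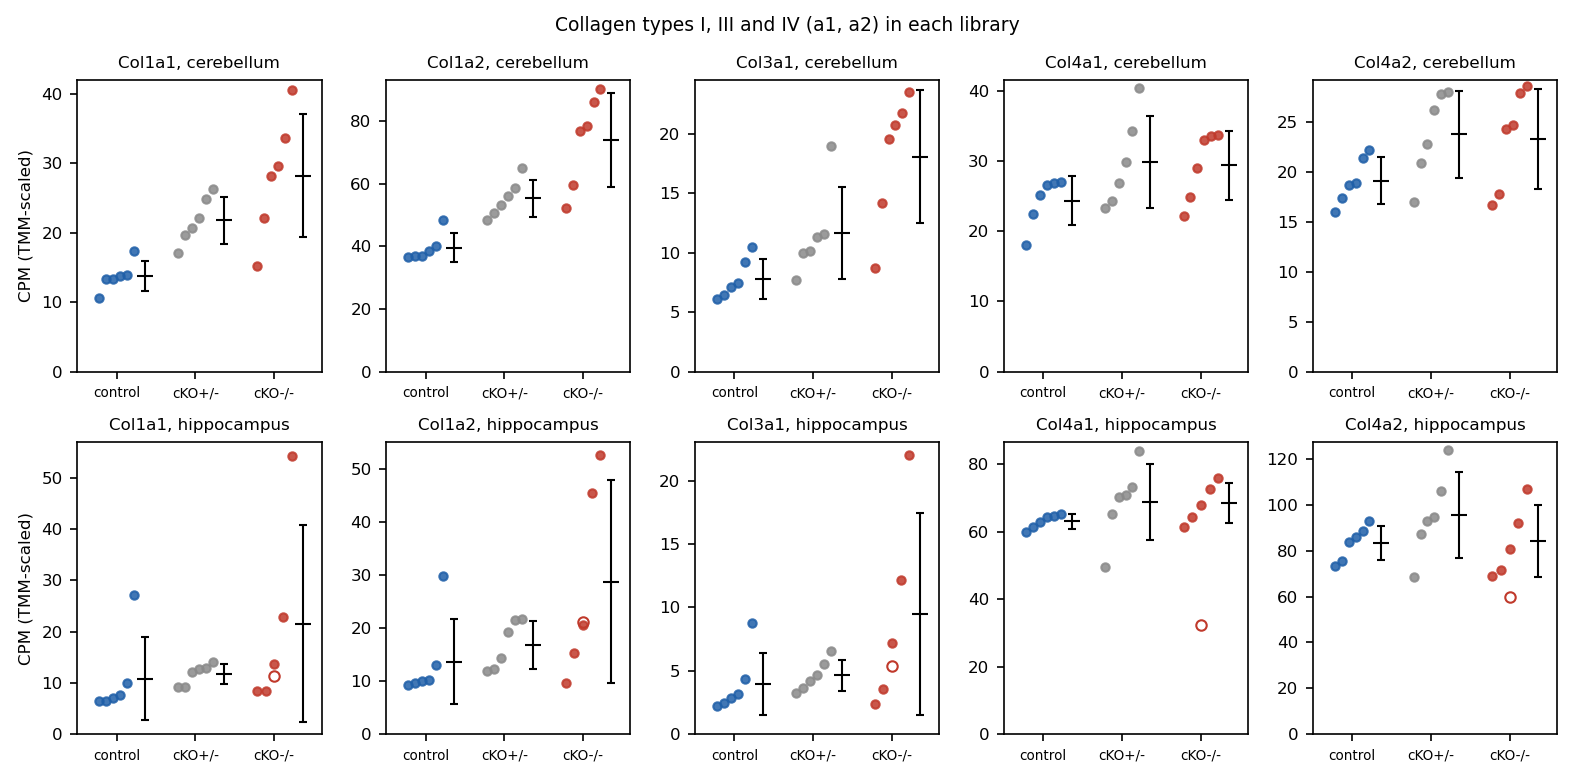
CPM of Col1a1, Col1a2, Col3a1, Col4a1 and Col4a2 in each library by genotype, in the cerebellum (top) and hippocampus (bottom); points are libraries, black marks are group means with SD, and the open circle is the hippocampal library of Sample_1160, which is not in the means. In the cerebellum Col1a2 had means of 39.6, 55.2 and 73.9 CPM from control to cKO-/-, while Col4a1 had means of 24.3, 29.8 and 29.4 CPM.

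Few hippocampal collagens passed. Of 38 tested, 2 were higher and 1 lower per allele lost, against 2.09% and 2.35% of all genes (4.44% in all), and 35 did not pass. The median collagen change was 0.016, beside 0.0017 over all 14339 genes tested. Col11a1 was 28.8, 43.2 and 57.7 CPM in controls, 38.9, 46.8 and 69.0 CPM in cKO+/-, and 62.6, 71.4 and 95.0 CPM in the 5 cKO-/- libraries. Its cKO-/- libraries lay above all controls (0.38, SE 0.09, edgeR adjusted p = 0.0196). Col12a1, also higher in the cerebellum, was 9.91, 11.2 and 13.0 CPM in controls, 11.9, 14.01 and 20.4 CPM in cKO+/-, and 12.3, 17.1 and 24.1 CPM in cKO-/- (0.33, SE 0.08, edgeR adjusted p = 0.0232). Col20a1, a FACIT of little known function, was lower, at 10.7, 12.3 and 13.8 CPM in controls and 7.42, 9.16 and 9.59 CPM in cKO-/-, without overlap (-0.23, SE 0.06, edgeR adjusted p = 0.0229). Those without overlap, Col11a1 above and Col20a1 below, compare with 1.53% and 2.12% of all genes (3.65% in either direction). With Sample_1160 in the fit none of the 38 passed, and adjusted p by edgeR was 0.0628 for Col11a1, 0.0782 for Col20a1 and 0.282 for Col12a1, while 1.72% of all genes passed. None passed with the term for animal numbers either, with edgeR adjusted p = 0.291 for Col11a1, 0.0567 for Col12a1 and 0.375 for Col20a1. With each mouse left out in turn, Col11a1 passed in 16 of 17 fits (all but that without Sample_1379), Col12a1 in 14 (all but those without Sample_1190, Sample_1192 or Sample_1219) and Col20a1 in 13 (all but those without Sample_1192, Sample_1371, Sample_1379 or Sample_1385). None passed either without the 5 libraries over 500 CPM of choroid plexus markers, where 118 genes in all passed.

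Type I and III chains had allele effects in the hippocampus of a size like those in the cerebellum, but with a far larger spread. Col1a1 was 6.39, 7.35 and 27.1 CPM in controls, 9.22, 12.4 and 14.1 CPM in cKO+/-, and 8.44, 13.7 and 54.4 CPM in cKO-/- (0.50, SE 0.23, edgeR adjusted p = 0.230). The top control was Sample_1129 and the top cKO-/- was Sample_1219. Col1a2 (0.54, SE 0.19, edgeR adjusted p = 0.126) and Col3a1 (0.63, SE 0.23, edgeR adjusted p = 0.134) had the same mice at the top of each group, with 52.8 and 22.0 CPM in Sample_1219 and 29.8 and 8.74 CPM in Sample_1129. Leaving out Sample_1219 moved the value of Col1a1 to 0.15, of Col1a2 to 0.35 and of Col3a1 to 0.31, and leaving out Sample_1129 moved them to 0.77, 0.74 and 0.85, where all of them passed (edgeR adjusted p = 0.0293, 0.0243 and 0.0337). Col1a2 also passed without Sample_936 (0.63, edgeR adjusted p = 0.0469). With Sample_1160 in the fit Col1a1 stood at 0.44, Col1a2 at 0.51 and Col3a1 at 0.58 (edgeR adjusted p = 0.320, 0.216 and 0.234). Col4a1 and Col4a2 varied little in the hippocampus, with control values of 59.8 to 65.2 and 73.5 to 93.2 CPM, and did not pass (0.06, edgeR adjusted p = 0.513, and 0.01, edgeR adjusted p = 0.936, or -0.01 and -0.03 with Sample_1160). Not tested were Col9a1, Col4a4, Col10a1, Col17a1, Col28a1 and Col6a6.

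Between tissues the allele effect itself differed for 2 of 34 collagens tested, against 1.49% of all genes (0.25% higher and 1.24% lower in the hippocampus). Col25a1 had an effect lower in the hippocampus by 0.71 log2 (SE 0.17, edgeR adjusted p = 0.0267): 0.66 in the cerebellum, where it is scarce, and -0.04 in the hippocampus. Col4a6 had an effect lower by 0.57 (SE 0.14, edgeR adjusted p = 0.0329), with 0.62 in the cerebellum and 0.07 in the hippocampus. Both also passed with Sample_1160 (-0.80 and -0.62). Neither passed with the term for animal numbers (-0.34 and -0.61, edgeR adjusted p = 0.999 and 0.433) or without the libraries over 500 CPM of choroid plexus markers (edgeR adjusted p = 0.124 and 0.13). With each mouse left out in turn, both passed in 11 of 18 fits, and the highest edgeR adjusted p was 0.12 for Col25a1 (without Sample_1385) and 0.0944 for Col4a6 (without Sample_1371). For Col1a1, Col1a2 and Col3a1 the difference was -0.03, 0.08 and 0.01 (edgeR adjusted p = 0.975, 0.907 and 0.992), and for Col4a1 and Col4a2 it was -0.09 and -0.14. With the mouse as a replicate block, Col27a1 joined these (0.55, edgeR adjusted p = 0.0933 without the block).

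Genes that make, cut, bind or break down collagen were read from lists held apart from the collagens, beside 7.11% of all genes higher and 6.55% lower in the cerebellum and 2.09% and 2.35% in the hippocampus. Counts of 1 or 2 genes of a list are given as values and are not read as a result about that list. In the cerebellum none of 17 genes for chain modification and folding was higher and 2 were lower, P3h1 (-0.21, edgeR adjusted p = 0.024) and P3h3 (-0.30, edgeR adjusted p = 0.0394), which hydroxylate prolines. Of 10 processing and crosslinking genes, Adamts2, the procollagen N-proteinase, was higher (0.40, edgeR adjusted p = 0.000465) and Bmp1, a C-proteinase, was lower (-0.33, edgeR adjusted p = 0.0411). Of 9 receptors, Mrc2, which takes up collagen fragments (0.42), the collagen-binding kinase Ddr2 (0.38) and the integrin chain Itgb1 (0.13) were higher. Of 12 basement membrane partners, the laminin chains Lama4 (0.31) and Lamb1 (0.26) were higher. Of 7 degradation genes, the matrix proteases Mmp14 (0.44) and Mmp2 (0.36) and the inhibitor Timp2 (0.43) were higher and none was lower. With the term for animal numbers, Adamts2 and Mmp14 were the only genes of these lists still higher in the cerebellum, and P3h1, P3h3 and Bmp1 did not pass. P3h4 and Fkbp10, from the list for chain modification and folding, were lower in that fit. In the hippocampus, P4ha3 (0.37), Lama2 (0.40), Lama4 (0.31) and Mmp14 (0.33) were higher and Bmp1 (-0.23), the collagen-binding integrin chain Itga11 (-0.55) and Timp4 (-0.10) were lower. With Sample_1160 Lama4 (edgeR adjusted p = 0.0571) and Timp4 (edgeR adjusted p = 0.940) did not pass, and the other 5 did. In the fit without it, Lama4 and Mmp14 passed upward in both tissues of the same mice, and Bmp1 passed downward in both. Only P4ha3 and Lama2 of these lists passed in the hippocampus with the term for animal numbers. Lama4 and Bmp1 then passed in neither tissue, and Mmp14 passed in the cerebellum alone.

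Several fibroblast markers were higher in the cerebellum, as were Col1a1, Col1a2 and Col3a1. Of 11 markers tested (Dcn, Lum, Igf2 and others, no collagen among them), 6 were higher per allele lost and 0 lower, beside 7.11% and 6.55% of all genes, among them Igf2 (0.58, edgeR adjusted p = 0.000213), Islr (0.53, edgeR adjusted p = 0.00482) and Osr1 (0.54, edgeR adjusted p = 0.00855). With the term for animal numbers only Igf2 passed (0.35, edgeR adjusted p = 0.000614). The marker sum was 234.4 to 312.1 CPM in controls, 281.7 to 469.8 CPM in cKO+/- and 289.0 to 577.9 CPM in cKO-/-. None of the 12 listed was at 0 in every library, and 1, Dpep1, averaged under 1 CPM. Endothelial markers had 0 higher and 1 lower of 10 (Ly6c1, -0.30), mural cell markers 0 of 9 in either direction, and choroid plexus markers 0 of 7. The part of meningeal or fibroblast RNA in the collagen values was not tested. In the hippocampus without Sample_1160, 1 of 11 fibroblast markers (Lum, 0.46), 3 of 10 endothelial markers (Cdh5, Kdr and Pecam1) and 1 of 9 mural markers (Rgs5, 0.41) were higher and none was lower, beside 2.09% and 2.35% of all genes. With it, Lum alone passed (edgeR adjusted p = 0.0498) and no endothelial or mural marker did. None of these markers passed in the hippocampus with the term for animal numbers. Sample_1160 had the lowest hippocampal level of Kdr (2.54 CPM, against 10.8 to 17.1 in the other cKO-/- libraries), Cdh5 (4.36 against 9.13 to 16.2) and Rgs5 (4.31 against 26.7 to 52.5). These genes did not stand for their lists. Its endothelial markers summed to 205.2 CPM, against 158.9 to 243.9 in the other cKO-/- libraries. Its mural markers summed to 216.8 CPM, against 136.2 to 208.9.

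Across cerebellar libraries, the log2 of the summed CPM of Col1a1, Col1a2 and Col3a1 followed that of the fibroblast markers, with Pearson's r = 0.946 and Spearman's rho = 0.922 over 18 libraries. Leaving out the 2 libraries farthest from the median on the marker axis gave 0.924. Within genotypes r was 0.683 in controls, 0.852 in cKO+/- and 0.964 in cKO-/-, and it was 0.819 among the 11 mice numbered inside Sample_1120 to Sample_1219 and 0.889 among the 7 outside. Hippocampal libraries gave r = 0.723 and rho = 0.844 over 17. Over all libraries, Col4a1 and Col4a2 followed the summed endothelial and mural markers less closely, with r = 0.563 and rho = 0.534 in the cerebellum and r = 0.225 and rho = 0.167 in the hippocampus. The cerebellar value came to 0.352 without the 2 farthest libraries, and the hippocampal one was 0.851 inside the number run and -0.693 outside it. The values of 1 point come from the same library and share its depth and dissection, and the relations are given as a description.

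**Figure D4:**
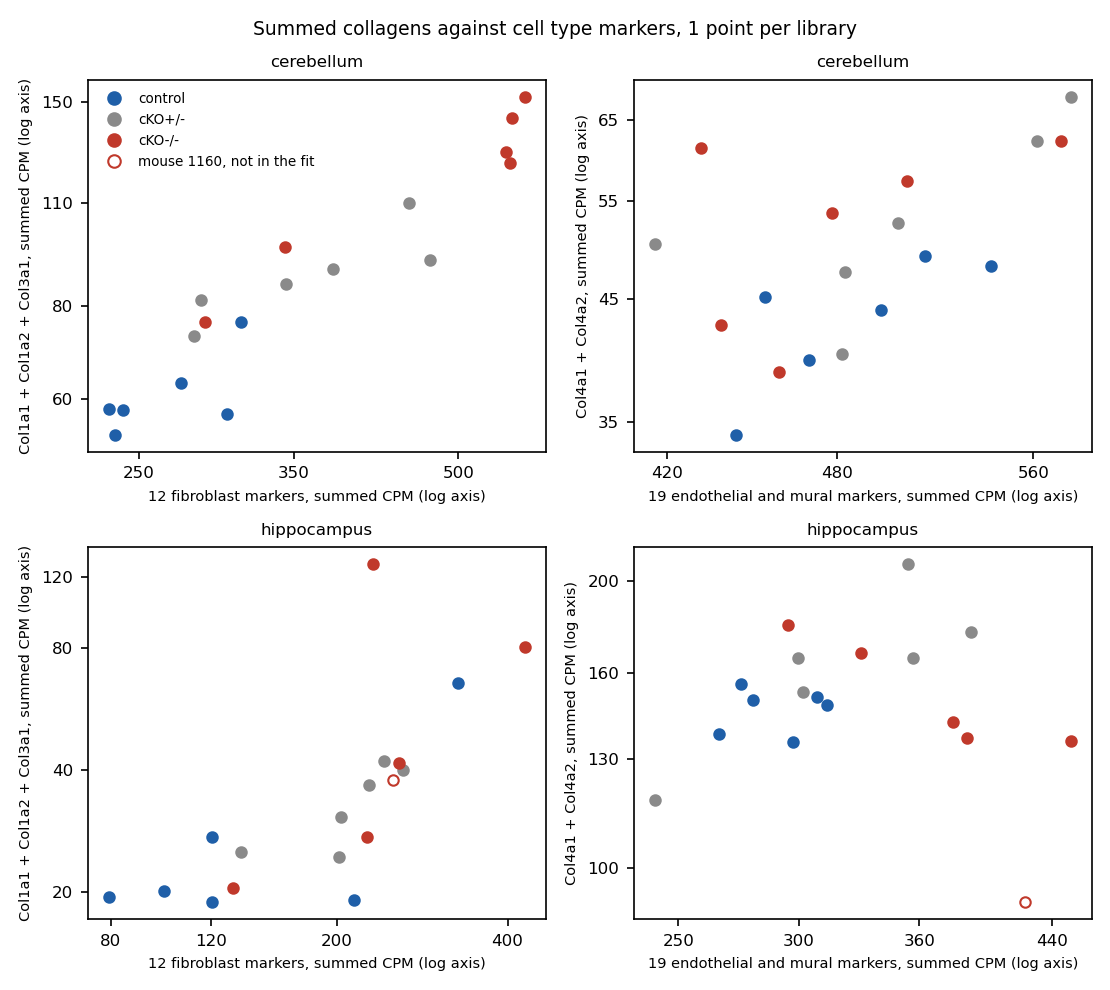
Summed CPM of Col1a1, Col1a2 and Col3a1 against summed fibroblast markers, and of Col4a1 and Col4a2 against summed endothelial and mural markers, per library on log2 axes, coloured by genotype, in cerebellum (top) and hippocampus (bottom); the open circle is Sample_1160. The cerebellar fibrillar panel is the tightest, with r = 0.946 over 18 libraries.

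Collagens varied more between libraries than most genes. The median biological coefficient of variation of the collagens tested was 0.252 in the cerebellum and 0.281 in the hippocampus, beside 0.128 and 0.0999 over all genes tested. Col8a1 was the widest in the hippocampus, with 1.10. Its 4 highest hippocampal values, 41.5 CPM in Sample_1385, 18.1 in Sample_1129, 17.3 in Sample_1170 and 10.01 in Sample_1219, came from libraries over 500 CPM of choroid plexus markers, and no other library but Sample_1189 (3.19 CPM) exceeded 2.64 CPM. Col9a3 was raised in the same libraries (55.5, 86.7, 39.6 and 20.7 CPM), and so was Col4a3 (4.31, 6.62, 3.43 and 1.62 CPM). A separate set of hippocampal libraries was high in Col6a1, with 89.6 CPM in Sample_1120, 68.2 in Sample_1433, 47.1 in Sample_1172, 46.2 in Sample_1189 and 45.6 in Sample_1170, against 6.96 CPM in the lowest control, Sample_1155. Sample_1120 and Sample_1433 also had the highest Col5a1, Col5a2, Col6a2 and Col23a1. The choroid plexus set and the Col6a1 set shared Sample_1170 and Sample_1189, and each held controls and knockouts.

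**Figure D5:**
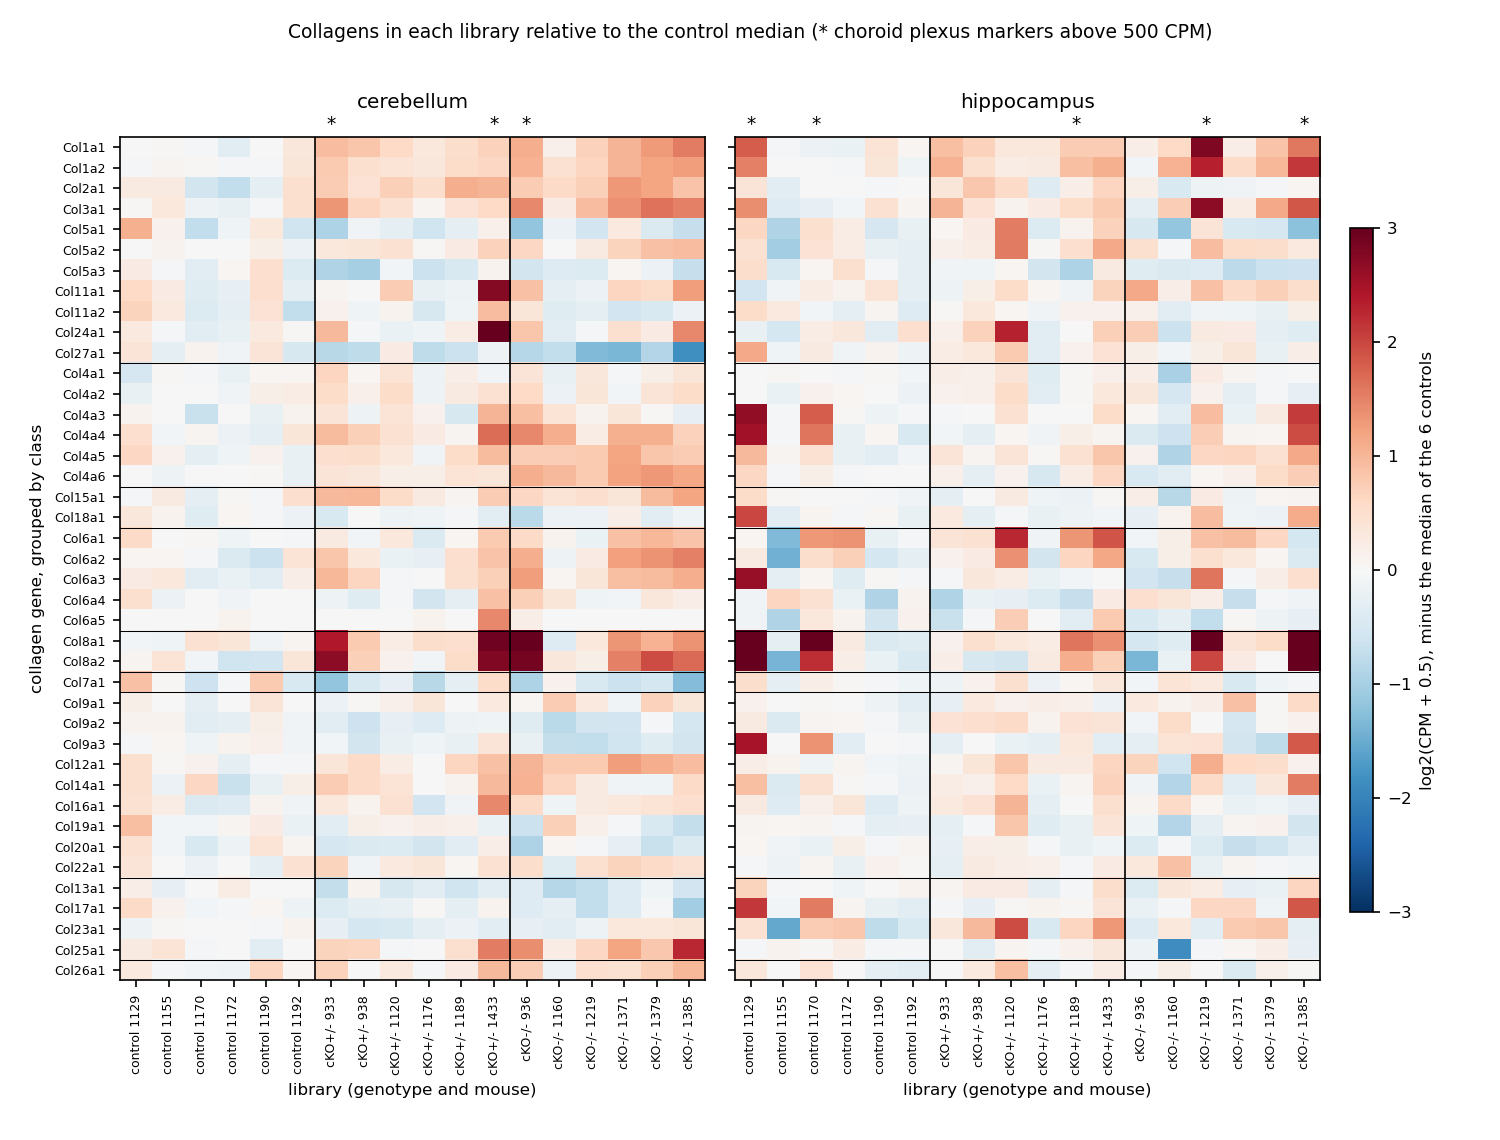
Level of each collagen gene in each library as log2(CPM + 0.5) minus the median of the 6 controls of that tissue (colour range -3 to 3), with genes grouped by class and libraries by genotype; asterisks mark libraries over 500 CPM of choroid plexus markers. Col8a1, Col8a2 and Col9a3 are highest in marked hippocampal libraries.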

How the data were processed

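RNA of adult cerebellum and hippocampus was sequenced as poly(A) libraries (43 bp paired-end), 1 library per mouse and tissue. Per the labels and the study's methods, the authors aligned reads to the mouse genome and counted them per gene with STAR (250a), and the deposited values are raw read counts, unnormalised and not pooled. The submitters' processing notes name mm9, but 40 of the 44 collagen genes start or end within 100 bases of RefSeq GRCm38.p6 and 2 do so on NCBIM37, so coordinates were read as GRCm38. Annotation, strand and multimapping settings are not given in the sources used here. Genes on opposite strands could therefore share reads.

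The filter kept a gene that exceeded 1 CPM in 6 libraries or more. Counts were fitted with edgeR 4.0.16 (R 4.3.3; limma 3.58.1; TMM scaling, quasi-likelihood F-test, Benjamini-Hochberg adjustment over all genes tested, threshold 0.05) on sex and on intact Pogz alleles as a number, the design of the study's methods, with the sign turned to an allele lost. The hippocampal fit left out Sample_1160, a library that the study does not name and that was chosen from earlier processing of these files. The tissue difference was fitted in the 12 control libraries, and the difference of allele effects in 35 libraries with a tissue by allele term. Within a tissue the p-values rest on separate mice, whereas the tissue difference and the difference of allele effects use 2 libraries of most mice, which their fits treat as independent (the mouse as a block is an alternative). CPM printed are TMM-scaled within a tissue, and levels per kilobase use the exon length in the files with both tissues scaled together. Correlations used log2 of summed CPM (Python 3.11.15, scipy 1.17.1). No 2 libraries were duplicates within counting noise. On simulated counts with 200 changed genes, the cerebellar, hippocampal, tissue and interaction fits (14027, 14339, 14224 and 13587 genes) recovered 90%, 97%, 57% and 92% of those changed by 0.5 log2 and 100%, 100%, 96% and 98% of those changed by 1. The changed genes were drawn at random from all genes tested. Collagens had a larger median coefficient of variation (0.252 against 0.128 in the cerebellum, 0.281 against 0.0999 in the hippocampus). These rates therefore do not give the recovery of collagens. Column values of all 36 libraries were used.

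Same-numbered libraries were taken to come from the same mouse, since their labels share the sample number. Their deviations from group means correlated across genes with a median r of 0.204 (-0.153 to 0.437, 13 of 17 pairs above 0.1). Genotype comparisons within a tissue hold 1 library per mouse.

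Genes named were Col1a1, Col1a2, Col3a1, Col4a1 and Col4a2 in each comparison, up to 12 of the collagens passing in each tissue by smallest p, the 6 largest tissue differences each way, the 5 highest levels per kilobase in each tissue, collagens passing in the difference between tissues, and up to 3 genes of each other list by smallest p. Further collagens (among them Col25a1 in the cerebellum, Col4a4, Col8a1, Col8a2 and Col6a1) were chosen after their values were seen. The members and all lists were chosen with earlier results of these data known. Alternatives were DESeq2 1.42.0, other filters and scalings, genotype as a factor, a term for animal number, the mouse as a block, and each library left out in turn.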

Additional observations from a re-analysis of the deposited data

Results flagged for a closer look

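Single libraries stood far from the other libraries of their group, by Dixon's criterion at the 95% level, in 23 of 156 groups (14.7%), each a collagen, tissue and genotype, over the 26 of 44 collagens looked at. Chance alone gives about 1 in 20 where values are normally distributed and genes are not picked by their values. The distribution was not checked, and many of these genes were named for their p, difference or level in these data. Groups that share a library are also not independent of each other, so the share is given as a description. The values are in CPM. The control hippocampus of Sample_1129 was high for Col9a3 (86.7), Col1a2 (29.8), Col1a1 (27.1), Col18a1 (25.2), Col6a3 (21.7), Col27a1 (14.7), Col3a1 (8.74), Col4a6 (2.51) and Col13a1 (2.20). Its cerebellum was high for Col17a1 (7.19) and Col6a4 (0.719). The cKO+/- cerebellum of Sample_1433 was high for Col11a2 (33.8), Col11a1 (14.6), Col20a1 (10.4), Col25a1 (8.81) and Col6a4 (1.10). The cKO-/- hippocampus of Sample_1385 was high for Col9a3 (55.5) and Col17a1 (1.91). Further single values were Col1a2 in the control cerebellum of Sample_1192 (48.5), Col3a1 in the cKO+/- cerebellum of Sample_933 (18.99), Col11a2 and Col4a5 in the cKO-/- cerebella of Sample_936 (22.5) and Sample_1371 (25.9), and Col22a1 in that of Sample_1160 (0.134, low). Hippocampi of Sample_1129 and Sample_1385 and cerebella of Sample_933, Sample_936 and Sample_1433 also had the high choroid plexus marker sums, whose part in these values was not tested.

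The allele effect was lower in the hippocampus than in the cerebellum by 0.71 log2 for Col25a1 (-0.71) and by 0.57 for Col4a6 (-0.57), in the edgeR test of the difference itself. Neither passed with the term for animal numbers (edgeR adjusted p = 0.999 and 0.433).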

How the results depend on the processing

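The count of collagens passing between tissues (15 higher and 15 lower) kept within 1.5 times under every alternative run, from 13 to 16 each way with a mouse left out (9552 to 10275 genes in all). In the cerebellum, the 14 higher, 5 lower and 1916 genes in all became 5, 3 and 308 with the term for animal number and 0, 0 and 48 for cKO+/- against control, and ranged over 10 to 15, 3 to 7 and 928 to 2572 with a mouse left out (fewest without Sample_1385, most genes without Sample_1160). In the hippocampus, the 2 higher and 1 lower became 0 and 0 with the term for animal number, for cKO+/- against control, with Sample_1160, and without the libraries rich in choroid plexus markers. The 636 genes in all then became 68, 5, 246 and 118, and 1056 with DESeq2. With a mouse left out the hippocampal counts ranged over 1 to 5 (5 without Sample_1129), 0 to 1 and 286 to 937. For the difference between tissues, the 0 higher, 2 lower and 203 genes in all ranged over 0 to 1 (1 without Sample_1129), 0 to 2 and 85 to 363 with a mouse left out. DESeq2 gave 1 higher and 337 in all, the term for animal number 0 lower and 10 in all, and leaving out the libraries rich in choroid plexus markers 1 higher, 0 lower and 111 in all. With the mouse as a replicate block, 1 was higher and 338 passed in all, and the block changed no other call of a collagen. The hippocampal correlation of Col4a1 and Col4a2 with vascular markers was -0.103 with Sample_1160, against 0.225. Apart from mice left out, 33 values of named collagens lost and 2 gained their call, and none changed direction while called. The causes were not tested. The settings on choroid plexus libraries, the hippocampus of Sample_1129, cKO+/- against control and the alternatives on pathway and marker lists were chosen after seeing the data. Collagens above 1 CPM in fewer than 6 libraries were not tested, such as Col10a1 and Col6a6 in both tissues and Col24a1 in the cerebellum.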
